A study of Arabidopsis thaliana with 77 samples.

Results

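Episuppressor line 3-72 is an Arabidopsis thaliana plant line of the Columbia ecotype that carries mutations in rdr1, rdr2, rdr6 and ddm1. Its genomic DNA, from rosette leaves of plants 4 weeks old, was sequenced as 1 library. The mutations described here are its own single-base calls on chromosomes 1 to 5. They were chosen by measured values of the calls: a call counted as own when its position and called base were listed in none of the other 4 call sets, when its quality score was 50 or more, and when at least 10 reads covered it. Of the 6939 calls listed for 3-72, 594 (8.56%) met this rule, and the 5 call sets together list 34875 calls. The other libraries are episuppressor lines 2-69, 2-20 and 3-75, labelled with the same 4 mutations, and a library labelled rdr1 rdr2 rdr6, also from leaves of plants 4 weeks old. Each line is 1 library, so no value below has a replicate, and the sources used here do not say how many plants were pooled or how the lines were obtained. The call sets list no reference sites or uncovered sites, so an own call is one that was listed for 3-72 alone.

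RDR1, RDR2 and RDR6 are RNA-dependent RNA polymerases, which copy transcripts into double-stranded RNA for small RNA production. DDM1 is a chromatin remodeller that keeps transposons methylated and silent. Suppressor screens in plants are commonly made by treating seeds with an alkylating mutagen. Such a mutagen modifies guanine, so that a G/C base pair becomes an A/T base pair. After selfing, a new mutation is heterozygous, fixed or lost. The labels name no mutagen for this line.

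DDM1 and RDR6, which the label of 3-72 gives as mutated, both carried a homozygous change. DDM1 (AT5G66750) carried G26652152A in exon 13, which changes cysteine to tyrosine (C615Y), and all 10 reads had the called base. RDR6 (AT3G49500) carried G18352401A in exon 2, a stop codon at R269*, in all 11 reads. Both were called homozygous in 3-72 and were listed in all 5 call sets, so neither is an own call. The label of the library rdr1 rdr2 rdr6 names no ddm1 mutation, yet the DDM1 change was listed for it too. The genotype and reads of the change in that library are not given here. No check of RDR1 or RDR2 is made here.

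The own calls that cut or change a protein most directly are shown first, because the gene results below turn on them. Each sequence is the reference (TAIR10) read 5′ to 3′ on the gene's strand, with the codon that changes in capitals, or, for PHYLLO, the splice acceptor. Genome positions count from the start of the chromosome, and a change is written as reference base, position, called base. Protein positions count from the first methionine.
HCAR, chr1:1283066-1283094, minus strand: cgtaaaccgcaaaTGGggaaagcaaaggt
PHYLLO, chr1:25898011-25898038, plus strand: ccgaaatttcaacAGattgagttagatg
AT3G06160, chr3:1866256-1866284, plus strand: ttttgaacaaggcTGGggaaatttcgttg
SGT, chr3:2220671-2220699, minus strand: acgtggagatgttCAAccttttgttgcaa
AT3G12440, chr3:3951588-3951616, minus strand: ggcgaatactctaCAGctatgcgttggta
AT3G17750, chr3:6076704-6076732, plus strand: tgccatcgtggtcCAAgagcaagtaagac
The 3 own calls that change a protein of RNA silencing or DNA methylation are shown in the same way.
NRPE1, chr2:16718643-16718671, plus strand: agtgcttgattccTCTccaaatagtaatt
DCL3, chr3:15756456-15756484, plus strand: caaacagagtaatTCTaagtctatcatgt
VIM3, chr5:15839154-15839182, minus strand: tggtcccataccaGCTgagaatgatgtca

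Nearly all own calls of 3-72 were G/C to A/T changes. They numbered 575 of 594 (96.8%, Wilson 95% interval 95.1 to 97.9), of which 310 were C-to-T and 265 G-to-A on the reference strand. Among the 1755 calls present in all 5 call sets that passed the same limits in 3-72, 306 (17.4%, 15.7 to 19.3) were of this kind. The shares differed by 79.4 percentage points (two-sided Fisher's exact test, adjusted p = 1.06e-286 over 4 share tests). Fisher's test here compares 2 sets of calls of 1 library, and calls close together are not independent, so its p-values are too small.

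The own calls also lay elsewhere. Within 3 Mb of the approximate centromere positions, which is 25.2% of the chromosomes' length, fell 164 own calls (27.6%) and 1489 of the calls in all 5 sets (84.8%), a difference of -57.2 points (Fisher's exact test, adjusted p = 2.35e-145). Annotated genes, with 82 own calls in pseudogenes and 12 in noncoding genes included, held 450 own calls (75.8%) against 763 shared calls (43.5%, Fisher's exact test, adjusted p = 1.21e-43). Coding sequence held 236 (39.7%) against 164 (9.34%, Fisher's exact test, adjusted p = 2.02e-57). On the arms alone these differences were 10.3 and 22.1 points. The shares of the chromosomes' length in genes and in coding sequence are not given here. Own G/C to A/T changes were spread almost evenly, at 4.97 per Mb near the centromeres and 4.78 per Mb on the arms. Shared calls stood at 49.6 per Mb near the centromeres and 2.98 per Mb on the arms. The fullest window of 1 Mb held 12 own calls, on chromosome 3 from 13000001 to 14000000, while the fullest window of shared calls held 309, on chromosome 2 from 3000001 to 4000000. Of 121 windows, 1 had no own call and 28 had no shared call.

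The 19 own calls of other kinds were unlike the rest in place and depth. Of them, 15 lay within 3 Mb of a centromere position, and of the 8 own calls covered by more than 40 reads, 7 were of these other kinds. A part of them is not private to the line. In 9 own calls more than 1 base was listed at the site, and at all 9 positions the other 4 call sets listed a call with the same first base. They met the rule only because the list of bases differed. Of these, 8 were not G/C to A/T, and 8 were homozygous. Without these 9, the share of G/C to A/T was 574 of 585 own calls (98.1%, 96.7 to 98.9), and 9 of the 11 other changes were near a centromere.

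The base next to the changed guanine was not the same mix as in the genome. A purine stood before the guanine in 380 of 575 own changes (66.1%, 62.1 to 69.8), against 51.8% of all guanines of chromosomes 1 to 5, counted on both strands, and 52.6% (47.0 to 58.1) of the shared G/C to A/T calls. Guanine stood there in 29.7% (26.1 to 33.6) of own changes and at 18.8% of all guanines. For adenine the shares were 36.3% (32.5 to 40.4) and 33.0%, so its interval included the genome value. Thymine stood before the guanine in 17.7% of own changes and at 35.3% of all guanines. Adenine followed the guanine in 41.9% (37.9 to 46.0) against 35.5%. Read as cytosines, 16.2% of the changed sites were CG, 17.4% CHG and 66.4% CHH, where H is any base but G, against 13%, 14.2% and 72.8% in the genome. DDM1 is known for its part in methylation of all of these contexts in heterochromatin. The files hold no methylation value for these sites.

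Long stretches of a chromosome carried own changes in only 1 direction. A G-to-A call has its guanine on the top, or reference, strand, and a C-to-T call has it on the bottom strand. Of 570 neighbouring pairs of own G/C to A/T changes on a chromosome, 514 had the same direction (90.2%, 87.5 to 92.4). For the shared G/C to A/T calls the count was 162 of 301 pairs (53.8%, 48.2 to 59.4). Among homozygous own changes 283 of 290 pairs matched (97.6%), and among heterozygous ones 226 of 275 (82.2%). The share varied little with distance over all own changes: it was 89.5% for pairs up to 50 kb apart and 87.5% for pairs over 500 kb apart. Pairs share their calls, so these intervals cover counting only.

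**Figure D1:**
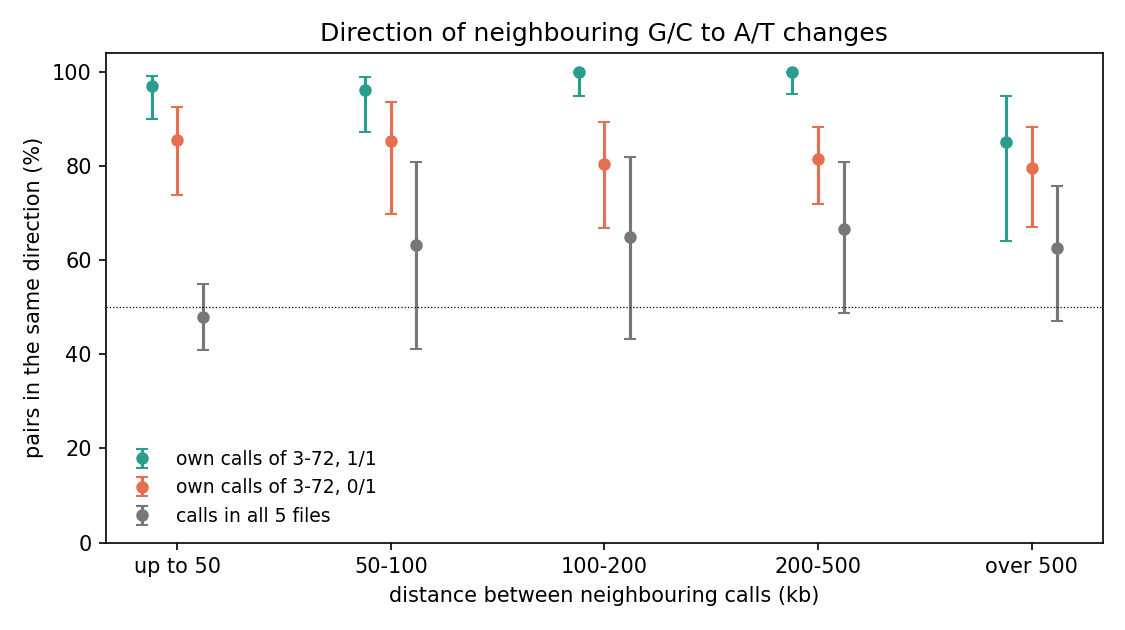
Share of neighbouring G/C to A/T calls that change in the same direction (percent, vertical axis) by the distance between them (kb), with Wilson 95% intervals, for homozygous (1/1) and heterozygous (0/1) own calls of 3-72 and for calls in all 5 sets. Homozygous own pairs stand between 85% and 100% in every distance class, and shared calls between 47.9% and 66.7%.

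Runs of at least 5 own changes in 1 direction numbered 16 and held 493 of the 575 changes (85.7%). The longest covered chromosome 5 from 7295949 to 26958169, where 126 consecutive changes over 19.7 Mb, centromere included, were all G-to-A, 119 of them homozygous. On chromosome 3, 38 G-to-A changes from 69848 to 6033293 were followed by a run of 6 C-to-T changes, and a further 71 C-to-T changes stood in a row from 7617476 to 23413562. On chromosome 1 the first 64 changes, from 69739 to 16388196, were C-to-T, and the last 21, from 27189013 to 30205028, were G-to-A. Chromosome 2 had C-to-T runs of 19 and 56, and its homozygous changes were C-to-T in 75 of 76. Chromosome 4 began with 30 G-to-A changes, from 125155 to 6516097, followed by 11 C-to-T changes up to 8470653. A direction thus held over both genotypes in several runs: the chromosome 1 run of 64 joined 20 homozygous and 44 heterozygous calls, and the chromosome 3 run of 38 joined 9 and 29.

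**Figure D2:**
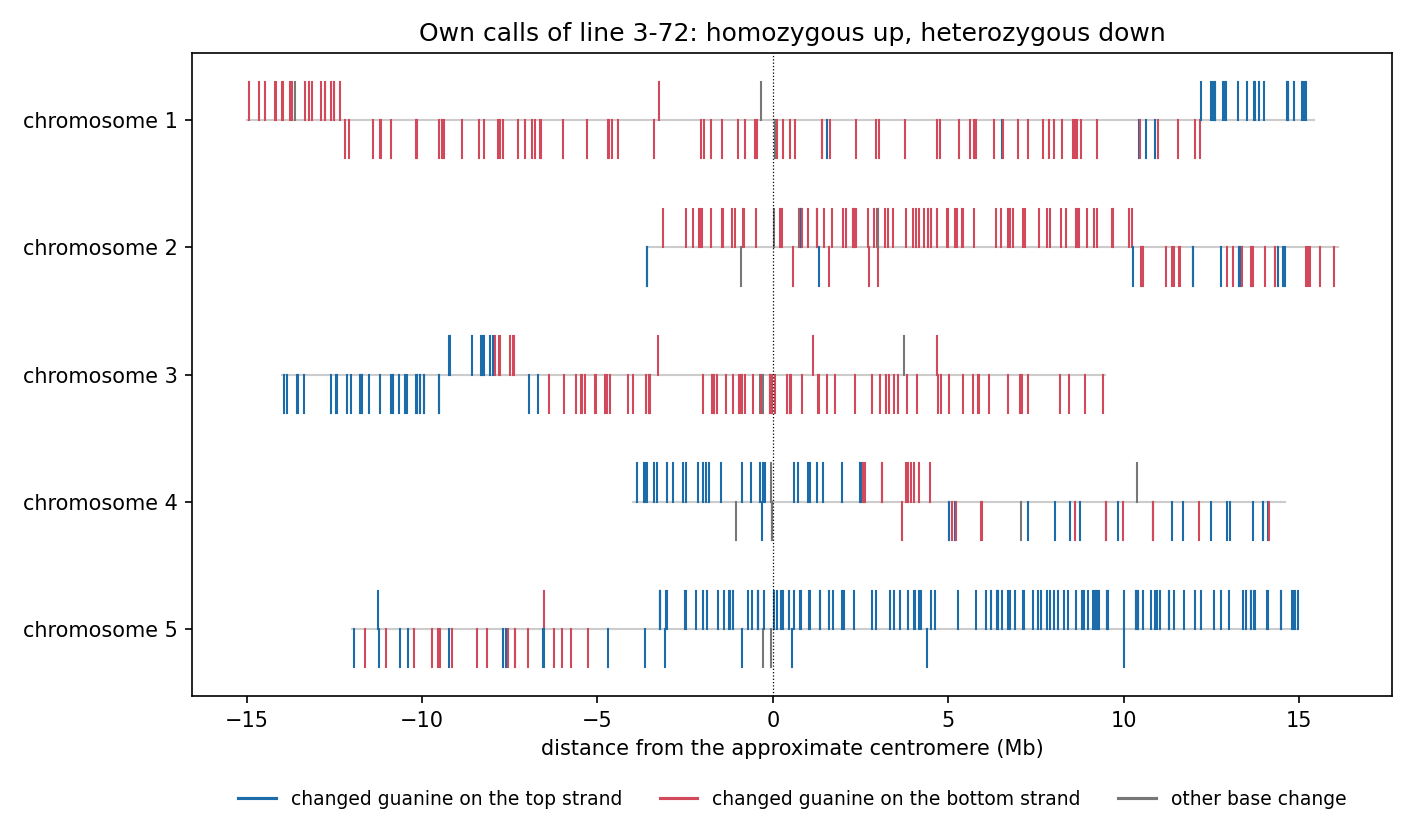
The 594 own calls of 3-72 along the 5 chromosomes, by distance from the approximate centromere (Mb): homozygous calls point up, heterozygous calls down, coloured by the strand of the changed guanine, with other base changes in grey. Chromosome 5 shows 126 consecutive top-strand changes, and most calls of a genotype stand in blocks.

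Single switches of direction between close neighbours were seen too, in 14 of the 133 pairs up to 50 kb apart. Between runs of at least 5 changes that followed each other with no call between, the direction switched at 2 places, both between homozygous calls. They are shown because they bound where one run ends and the next begins, with the changed base in capitals on the reference strand.
Chromosome 3, last G-to-A, chr3:6033281-6033305: gtcggagcagagGctttgttcttga
Chromosome 3, first C-to-T, chr3:6076705-6076729: gccatcgtggtcCaagagcaagtaa
Chromosome 4, last G-to-A, chr4:6516085-6516109: tagcaagcaatgGatggaacaaaca
Chromosome 4, first C-to-T, chr4:6575630-6575654: tagtagtatgacCagaatgaccagc
The calls on either side of the chromosome 3 switch were 0.0434 Mb apart and those of the chromosome 4 switch 0.0595 Mb apart. The first C-to-T call on chromosome 3, at 6076717, is the stop codon in AT3G17750 shown above. The other 2 changes from one run to the next were wider, over 2.95 Mb on chromosome 1 with 8 calls between and over 8.0 Mb on chromosome 4 with 21 calls between.

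Where heterozygous calls filled a region, the runs were in part mixed. Heterozygous neighbours matched in 97 of 98 pairs on chromosome 3 (99.0%), but in 13 of 30 on chromosome 4 (43.3%) and 20 of 32 on chromosome 5 (62.5%). The other lines had runs too. Neighbouring own changes matched in 83.8% of pairs in 2-69, 77.6% in 2-20 and 92.3% in 3-75, and for homozygous pairs alone the shares were 97.8%, 95.8% and 96.4%. The difference between lines was not tested.

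Own calls outside the limits give a view of the same runs from calls the rule left out. On the arms, 74 of 79 homozygous G/C to A/T calls below a limit had the direction of the nearest own call (93.7%, 86.0 to 97.3). Of 501 heterozygous ones, 359 did (71.7%, 67.6 to 75.4).

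Own calls were homozygous (1/1) in 303 cases (51%, 47.0 to 55%) and heterozygous (0/1) in 291, and the 2 genotypes lay in blocks. Chromosome 5 was mostly homozygous, with 121 of 156 own calls (77.6%), and chromosome 3 mostly heterozygous, with 19 of 120 homozygous (15.8%). Chromosome 1 had 35.2% of 122, chromosome 2 had 66.4% of 119 and chromosome 4 had 53.2% of 77. Density ran from 4.01 own calls per Mb on chromosome 1 to 6.04 on chromosome 2.

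Blocks are runs of at least 5 consecutive own calls of 1 genotype. There were 30, and they held 546 of the 594 calls (91.9%). The 17 homozygous blocks held 280 calls over 41.2 Mb, and the 13 heterozygous blocks 266 calls over 61.7 Mb. On chromosome 1 both ends were homozygous. The left block of 20 calls ran from 69739, between genes, to 2671883 in the 5′ UTR of CRT3, a calreticulin of the endoplasmic reticulum. The right block of 21 calls began at 27189013 in AT1G72230 (A156T) and ended at 30205028. Between them lay heterozygous blocks of 30, 8 and 41 calls, the first opening at 2806810 in AT1G08760 (A347V). The step from homozygous to heterozygous calls on the left arm thus fell between 2671883 and 2806810, and on the right arm between 27162885 and 27189013.

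Chromosome 2 was homozygous from 471218, in GAD3 (A161T), a glutamate decarboxylase, to 13839933, in 5 blocks of 11, 7, 7, 8 and 42 calls. It was heterozygous from 13869275, in an intron of LUH, a transcriptional corepressor, to 19576974 in ABCC4 with 32 calls. Chromosome 3 had a single homozygous block of 15 calls, from 4783612 in SRF7 (L613F), a receptor-like kinase, to 6613376 in RBP47B, an RNA-binding protein. That block contained the switch of direction. Its heterozygous blocks held 29 calls before it, from 69848 to 4495705, and 19, 24, 11 and 16 after it.

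Chromosome 4 opened with homozygous blocks of 15, 13 and 6 calls up to 8470653, in IQD19 (P128S), and closed with heterozygous blocks of 17 and 13 calls from 9007992 to 18139827. Chromosome 5 was heterozygous from 764387 to 8351171 in blocks of 19 and 7 calls. Homozygous blocks of 12, 5, 5, 23, 37 and 33 calls followed, from 8952311 to 26958169 in FRO1 (D33N), a subunit of mitochondrial complex I. DDM1 lies inside the last of these blocks, which began at 22014505, and 4 own calls lay beyond the gene. RDR6 lies in a stretch of chromosome 3 whose own calls were mostly heterozygous, while its stop codon, listed in every call set, was homozygous.

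In 27 cases a single call had calls of the other genotype on both sides, not always those of a block. The 16 heterozygous ones lay near a centromere in 12 cases and were not G/C to A/T in 4. Of the 11 homozygous ones, 5 had reads with the reference base and 3 were not G/C to A/T. Those 3, and the G/C to A/T call at 10713769 on chromosome 3, are among the 9 calls listed with several bases. The other call sets listed the same first base there, so these calls are not private to the line.

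Homozygous blocks held more own calls per Mb than heterozygous blocks, 6.79 against 4.31, and for G/C to A/T calls alone 6.69 against 4.24. That order depended on the limits. When low-quality and low-depth own calls of that type, G/C to A/T, were counted in the same spans, the homozygous blocks held 10.4 per Mb and the heterozygous blocks 14 per Mb. Of the calls counted that way, 350 of 427 were homozygous inside homozygous blocks, and 18 of 863 inside heterozygous blocks.

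Read shares at the calls set the genotypes, so they are given as description. Median depth was 15 reads at own calls, from 10 to 618, and 33 at the shared calls, from 10 to 7904. Among shared calls the median depth was 17 at homozygous and 39 at heterozygous ones. At heterozygous own calls it was 16, the lowest of the lines, with 32 in 2-69 and 21 in both 2-20 and 3-75. Of the 303 homozygous own calls, 287 had no read with the reference base. The other 16 had from 1 to 14 such reads, the 14 at a site covered by 618 reads.

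Heterozygous own calls had a median of 61.1% of high-quality reads with the called base (interquartile range 53.9 to 66.7, 95% interval of the median 60.0 to 62.5, 291 calls). This share moved with depth. It was 66.7% over the 99 calls with 10 to 14 reads, none of which was under 57.1%, then 58.8% at 15 to 19 reads and 55.3% at 20 or more. Shared heterozygous calls with 10 to 14 reads had a median of 69.2%, over 21 calls. With quality left aside, the 908 own heterozygous G/C to A/T changes with at least 10 reads had a median of 44.4% and a pooled share of 43.1%. On the arms, 569 own heterozygous changes from G/C to A/T with at least 10 reads, whatever their quality, had a median of 50%, and their pooled share was 49.7%. Called bases were read on both strands at every own call, with 51% of such reads on the forward strand.

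**Figure D3:**
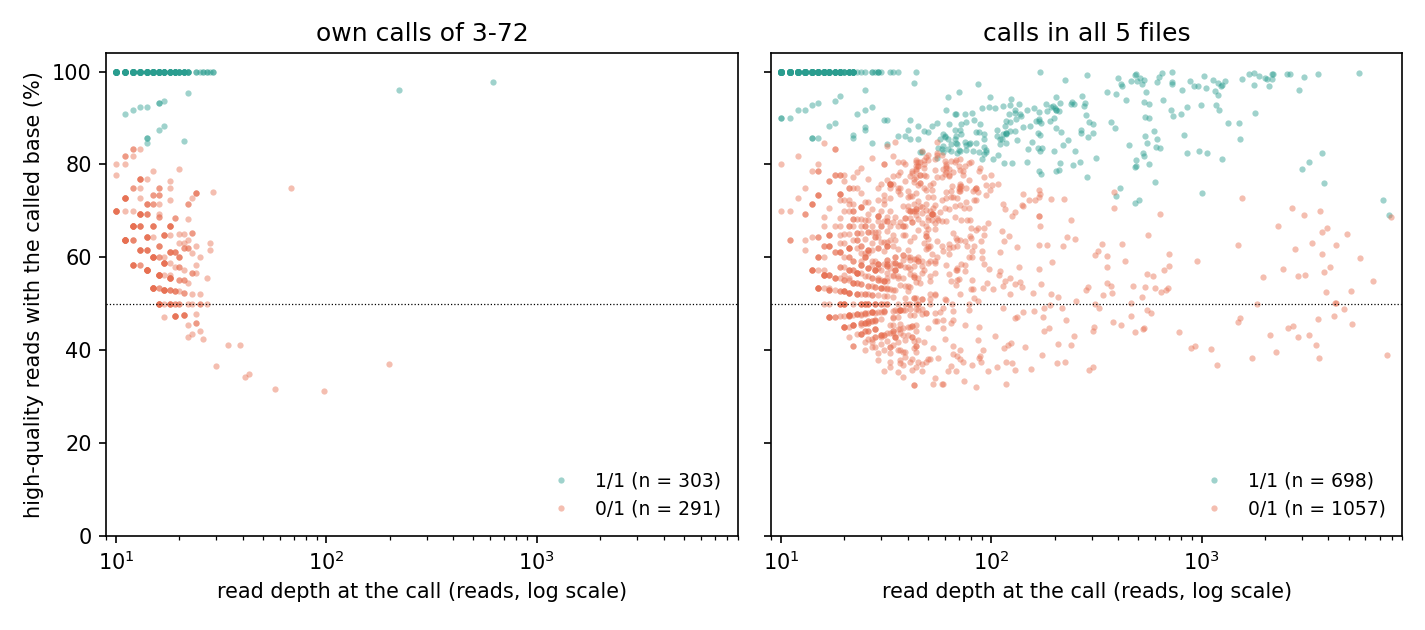
Share of high-quality reads with the called base (percent, vertical axis) against read depth (log scale) for own calls of 3-72 and for calls in all 5 sets, by genotype; each point is a call. Heterozygous own calls under 15 reads all stand at 57.1% or higher, and few own calls reach 40 reads.

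Just inside the quality limit, from 50 to 55, were 49 own calls with a median called-base share of 58.3%, of which 42 were G/C to A/T and none was homozygous. Just outside, from 45 to 50, were 62 calls with a median of 50%, of which 55 were G/C to A/T and again none was homozygous. Among own calls that passed the quality limit, 40 had a depth of 10, 32 of them homozygous. At depth 9, 35 such calls passed it, 29 of them homozygous, and calls under the quality limit are not in these counts. In all, 1608 own calls lay outside the limits, 1084 by quality alone, 95 by depth alone and 429 by both. Of those, 60.0% were G/C to A/T and 127 were homozygous. Most calls outside the limits were heterozygous.

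Own calls changed a protein in 170 genes, 0.619% of 27444 protein-coding genes, each gene once. There were 164 missense changes, 5 stop codons and 1 splice-site change, and 84 of the 170 were homozygous. A further 66 coding changes were synonymous, 85 calls lay in introns, 18 in 5′ UTRs, 14 in 3′ UTRs, 82 in pseudogenes and 144 between genes. Missense changes followed the base change: glutamate to lysine came 16 times, aspartate to asparagine 14, proline to serine 14, alanine to threonine 13 and alanine to valine 12. The changed guanine was on the coding strand in 189 of 352 cases in protein-coding genes (53.7%, 48.5 to 58.8).

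The homozygous stop codons lay at 92.9% and 68.5% of the protein's length. In HCAR (AT1G04620), a reductase of the chlorophyll cycle, C1283079T in exon 18 gave W429* of 462 residues, in 11 of 11 reads (exact 95% interval 71.5 to 100%). In AT3G17750, annotated as a protein kinase, C6076717T in exon 3 gave Q780* of 1138 residues, in 17 of 17 reads. The 3 heterozygous stops lay at 32.5%, 34.0% and 62.3% of the protein's length. SGT (AT3G07020), a sterol glucosyltransferase, had Q207* of 637 in 11 of 24 reads. AT3G06160, a B3-domain protein, had W127* of 374 in 9 of 15 reads, and AT3G12440, annotated as ribonuclease H-like, had Q220* of 353 in 10 of 17. PHYLLO (AT1G68890), an enzyme of phylloquinone synthesis, had G25898025A at the acceptor of intron 4 in 8 of 14 reads. Neither these truncations nor the splice change was followed to RNA or protein in the files.

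Of 38 RNA silencing genes, 2 had a protein-altering own call, both heterozygous. NRPE1 (AT2G40030, annotated as NRPD1B), the largest subunit of RNA polymerase V, which makes scaffold transcripts for RNA-directed DNA methylation, had C16718657T in exon 8, giving S848F in 11 of 20 reads. DCL3 (AT3G43920), the Dicer that cuts the small RNAs of this pathway, had C15756470T in exon 12, giving S516F in 8 of 11 reads. Of 34 DNA methylation and chromatin genes, 1 was altered. VIM3 (AT5G39550), of a family that binds methylated DNA and helps keep CG methylation, had G15839168A in exon 2, giving A253V in 16 of 16 reads. None of 33 centromere, kinetochore and cohesin genes, of 25 meiosis genes or of 10 mismatch and base repair genes was altered. No own call within the limits lay inside them, and calls outside the limits are not counted here. Of all 27444 protein-coding genes, 360 held an own call inside, so nothing is read from this absence. The shares of the first 2 lists are above the 0.619% of all genes, but they rest on 2 genes and 1 gene, and nothing is read from them about the lists.

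The 10 homozygous missense calls of highest quality spread over 4 chromosomes. The highest in quality, A3619492C,T in AT2G08986 near the centromere of chromosome 2, is one of the 9 calls listed with more than 1 base and had 193 high-quality reads with a called base and 8 with the reference base, at a total depth of 221. The other 9 were G/C to A/T with no reference read, and their counts below are high-quality reads with the called base. They include RD21B (P450L), a cysteine protease, with 28 reads, PERK4 (G266R), a proline-rich receptor-like kinase, with 28, and BSK8 (E356K), a kinase of brassinosteroid signalling, with 21. MEF3 (H33Y), a mitochondrial RNA editing factor, and AT1G03370 (L97F), with a C2 domain, had 20 reads each, DTX1 (C234Y), a MATE efflux carrier, had 22, and AT1G79990 (E867K), a coatomer subunit, had 19. EXT12 (P167S), a cell wall extensin, and AT5G40150 (A135V), a peroxidase, had 20 each.

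Of the 170 genes altered in 3-72, 7 were also altered, by other own calls, in another line. They are 4.12% of the 170 genes, beside 1.81% of all protein-coding genes altered in the other 3 lines, and 1.41% of those 497 genes, beside the 0.619% for 3-72. Whether the overlap differs from these shares was not tested. Shared with 2-69 were 5, including PAL1 (P709L in 9 of 21 reads in 3-72, D574N in 38 of 38 in 2-69), the first enzyme of phenylpropanoid synthesis, and GRL (D979N in 10 of 18 reads, V515M in 27 of 27), a subunit of an actin-regulating complex. AT2G29210, annotated as a splicing factor, was altered in 3 lines: R204C in 13 of 13 reads in 3-72, R179H in 9 of 14 in 2-20 and P404S in 63 of 63 in 3-75.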

How the data were processed

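Genomic DNA libraries of 5 samples were used, 1 per line, without replicates. For each, the authors deposited a list of single-base calls (VCF 4.1) made with samtools 0.1.19-44428cd, per the file headers. The quality score of each call is the deposited value of the authors' caller, as are total depth and high-quality reads per base. Tools named in the submitters' processing notes are Bowtie, SAMtools and Bismark, and the build is TAIR10. The sources used here state no filters. Chromosome lengths and the reference base of all 34875 calls matched the TAIR10.1 reference from RefSeq, which supplied genes and sequences.

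Changes were translated on a gene's longest coding sequence, with the 2 intron bases beside an exon as splice sites. Calls with several bases were classed by the first. A simulated set of 1000 coding changes in 27415 genes gave 100% matching translations. Approximate centromeres were taken at 15, 3.6, 14, 4 and 12 Mb. For the 4 shares, Fisher's exact test was two-sided, and p-values were adjusted by the Benjamini-Hochberg method. Shares have Wilson 95% intervals and reads at a site exact ones, both covering counting error only. Members, gene lists and rules were chosen with earlier results of these data known. Presence in other call sets, quality and depth chose the members, so those values are description. Named genes were those with stop or splice changes, altered list genes, the 10 homozygous missense calls of highest quality, block ends, DDM1, RDR6 and calls next to the limits. The genes altered in several lines were named after their values were seen. The software was Biopython 1.88, scipy 1.17.1 and numpy 2.4.6 in Python 3.11.15, with matplotlib 3.10.9 for plots.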

Additional observations from a re-analysis of the deposited data

How the results depend on the processing

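The 4 differences between own and shared calls kept their direction and stayed under the 0.05 threshold in every alternative run: stricter or no limits, sharing by position, no clusters, arms alone, other pericentromere widths and shared calls of any quality. The share near the centromeres has no value on the arms alone. The smallest differences were 51.5 points for G/C to A/T, 19.3 and 10.3 points for genes without limits and on the arms, 15.9 for coding sequence and -36.4 for pericentromeres. Counts moved with the limits. With quality of 100 or more, at least 15 reads, or no limits there were 272, 331 or 2202 own calls, and 76, 97 or 361 protein-altering ones. Of the own calls 98.9%, 42.0% or 19.5% were then homozygous, and the median called-base share of heterozygous calls was 73.9%, 56.5% or 41.2%. The 73.9% rests on very few calls, because 98.9% of those 272 own calls were homozygous. Blocks numbered 35 with runs of 3 or more and 26 with G/C to A/T calls alone. The same-direction share was 97.6% for homozygous and 82.2% for heterozygous calls alone. In alternatives chosen after seeing the data it was 76.4% without limits, 85.5% with at least 15 reads, 88.1% on the arms and 90.5% without clusters. The cause of these shifts was not tested. No paired analysis was possible because each line is 1 library. Depth limits the precision of read shares at single calls.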
